A study of Mus musculus with 6 samples.

Results

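The protein subunits of the mitochondrial ribosome were examined by ribosome profiling of mouse round spermatids. They were taken as every gene row whose symbol is Mrpl or Mrps followed by a number and at most 1 letter from a to c, which gave 77 of the 22770 rows of the deposited table, 48 named Mrpl and 29 named Mrps. Ribosome profiling sequences the RNA stretches that ribosomes shield from nuclease, and the values are footprint densities in FPKM, which count fragments per kilobase of transcript relative to all mapped fragments of the library. FPKM is scaled by transcript length, and footprints fall mostly on coding sequence, so a level set beside that of another gene also carries the lengths of their untranslated parts, whose share in these levels was not tested. Matched RNA was not analysed here, so a density holds the amount of mRNA and its translation together. In bulk samples fewer cells of a type and less RNA per cell cannot be told apart.

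Round spermatids, the haploid cells that follow meiosis, came from mouse testis in 3 samples labelled Eif5a SKO, in which the translation factor gene Eif5a is targeted, and in 3 wild-type (WT) samples. The columns of the table call the targeted genotype cKO. The sources used here do not give the promoter that drives any recombinase, the age of the mice or the meaning of SKO, and the only count of mice, 3 per group, stands in a design text written for an accessibility assay. EIF5A binds ribosomes and helps them through stretches on which peptide bonds form slowly. Eif5a itself had 1.84, 1.93 and 2.99 FPKM in the SKO libraries, against 34.2, 48.8 and 61.9 FPKM in the WT libraries, a log2 fold change of -3.90 (limma, adjusted p = 0.00641). With 3 samples against 3, its exact two-sided permutation p was 0.1, the smallest this design allows.

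The mitochondrial ribosome makes the few proteins that the mitochondrial genome encodes, all of them hydrophobic parts of the respiratory chain and the ATP synthase. Its proteins are encoded in the nucleus, translated on cytosolic ribosomes and imported. The proteins of the large subunit, named MRPL, surround the peptidyl transferase centre and the exit tunnel. Those of the small subunit, named MRPS, belong to the part that binds the mRNA and holds the decoding centre. Many descend from bacterial ribosomal proteins and others were added in mitochondria. The names do not always fit the structures. MRPS30 and MRPS18A lie in the large subunit, and MRPS36 is now counted with the 2-oxoglutarate dehydrogenase complex. By structure the table held 50 members of the large and 26 of the small subunit.

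The members lay on 17 chromosomes, none of them X or Y, with at most 11 on a single chromosome, chromosome 11. Promoter windows from RefSeq (GRCm38.p6, 250 bases before to 50 bases after a listed start) were found for 68 members, 3 of them with several windows. In 54 members a window started within 100 bases of the annotated gene start, and in the other 14 the nearest lay up to 10282 bases inside the gene. They were searched on both strands for the letters of 4 motifs, and motifs were allowed to overlap each other. The palindromic core motif of NRF1, a regulator of nuclear genes for mitochondrial proteins, spelled out in the first 3 stretches printed next, was in the windows of 13 members (19.1%), against 7.17% of all 17492 protein-coding genes with a window. CCGGAAG, bound by ETS factors such as GABP, was in 25 members (36.8%), against 12.9% of all genes. AAGATGGCG, bound by YY1, was in 8 members (11.8%), against 2.14% of all genes. TGACGTCA, the cAMP response element, was in 2 members (2.94%), against 2.54% of all genes. At least 1 of the first 3 motifs was present in 40 members (58.8%), against 20% of all genes. With only windows within 100 bases of the gene start it was present in 31 of 54 members (57.4%), against 18.9% of 13537 genes. These matches describe letters and do not show binding. The genes used for comparison were not matched for base composition or expression, whose part in these shares was not tested.

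The following stretches show, 5′ to 3′ on the strand of the gene, a match upstream of a start that lies within 100 bases of the annotated gene start, in well-covered members. Capitals mark the motif or its reverse complement. The matches lie at chr16:84735335-84735394 (minus strand, Mrpl39), chr1:37890369-37890428 (plus, Mrpl30), chr14:57826157-57826216 (plus, Mrpl57), chr5:100798576-100798635 (plus, Mrps18c), chr6:125192083-125192142 (plus, Mrpl51) and chr7:78782997-78783056 (plus, Mrps11).
Mrpl39, NRF1 letters: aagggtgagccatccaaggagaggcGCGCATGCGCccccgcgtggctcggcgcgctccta
Mrpl30, NRF1 letters: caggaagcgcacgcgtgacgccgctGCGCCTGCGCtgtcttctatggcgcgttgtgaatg
Mrpl57, NRF1 letters: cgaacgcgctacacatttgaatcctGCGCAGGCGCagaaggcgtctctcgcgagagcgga
Mrps18c, ETS letters: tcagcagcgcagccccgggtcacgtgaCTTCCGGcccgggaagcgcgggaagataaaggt
Mrpl51, ETS letters: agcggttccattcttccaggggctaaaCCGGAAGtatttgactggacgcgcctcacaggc
Mrps11, YY1 letters: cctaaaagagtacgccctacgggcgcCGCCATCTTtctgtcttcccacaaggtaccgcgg
The printed Mrpl57 stretch lies inside the annotated gene Ska3, which overlaps Mrpl57. Mrps11 and Mrpl46 are divergent neighbours, with 41 bases between their annotated ends on chromosome 7, so that the printed Mrps11 stretch lies inside the annotated Mrpl46 gene. Mrps11 had 18.1, 29.1 and 35.9 FPKM in SKO and 9.41, 19.9 and 29.3 FPKM in WT libraries. Mrpl46, a protein of the central protuberance, had 4.75, 11.5 and 6.97 FPKM in SKO and 5.37, 6.27 and 10.6 FPKM in WT libraries. Both overlapped between the genotypes.

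The members spanned a wide range of footprint density. In 34 of them (23 Mrpl and 11 Mrps) the mean over the 6 libraries was at least 10 FPKM, a level reached by 27.8% of the tested protein-coding rows, whose median was 4.25 FPKM. In 11 members (4 Mrpl and 7 Mrps) the mean was under 2 FPKM. The 5 densest members held 26.8% of the summed FPKM of all 77.

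The densest members were Mrpl20 and Mrpl39. Mrpl20, a large-subunit protein whose bacterial homologue is needed early in assembly, had 43.2, 123 and 86.0 FPKM in SKO and 52.2, 79.1 and 123 FPKM in WT libraries. Mrpl39, a mitochondria-specific protein, had 50.1, 123 and 92.7 FPKM in SKO and 43.8, 58.9 and 91.9 FPKM in WT libraries. Both spanned overlapping ranges in the genotypes. Among the Mrps genes the densest were Mrps14 and Mrps18c. Mrps14, of the head of the small subunit, had 15.3, 52.7 and 42.2 FPKM in SKO and 28.8, 31.3 and 47.4 FPKM in WT libraries. Mrps18c, of the platform, had 25.7, 61.5 and 33.0 FPKM in SKO and 15.8, 26.0 and 43.8 FPKM in WT libraries. Here too the genotypes overlapped.

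Mrpl47 and Mrpl24, both of the exit tunnel, came next among the Mrpl genes. Mrpl47 had 29.1, 65.2 and 36.6 FPKM in SKO and 13.2, 32.6 and 36.7 FPKM in WT libraries. Mrpl24 had 23.3, 40.8 and 36.6 FPKM in SKO and 27.4, 30.5 and 52.9 FPKM in WT libraries. Of these neighbours in place, Mrpl47 had the higher mean in SKO and Mrpl24 in WT, and in both the libraries of the genotypes overlapped.

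At the other end, Mrps26 and Mrps2 averaged 0.786 and 0.894 FPKM and fell under the filter of a mean of 1 FPKM, which left 75 members to test. Mrps16, Mrps27 and Mrpl34 averaged between 1.06 and 1.53 FPKM. Mrpl50 had 1.70, 2.64 and 2.58 FPKM in SKO and 0.601, 1.87 and 1.05 FPKM in WT libraries, and Mrpl44 had 2.30, 2.65 and 1.58 FPKM in SKO and 1.57, 1.76 and 1.26 FPKM in WT libraries. Both overlapped between the genotypes. Mrpl14 was listed at 0 in 1 SKO library, with 3.42 and 6.96 FPKM in the other SKO libraries and 1.04, 1.26 and 1.94 FPKM in the WT libraries. Mrps34 had 1.23, 1.00 and 1.98 FPKM in SKO libraries and was listed at 0 in 1 WT library, with 1.62 and 3.00 FPKM in the other WT libraries.

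**Figure D1:**
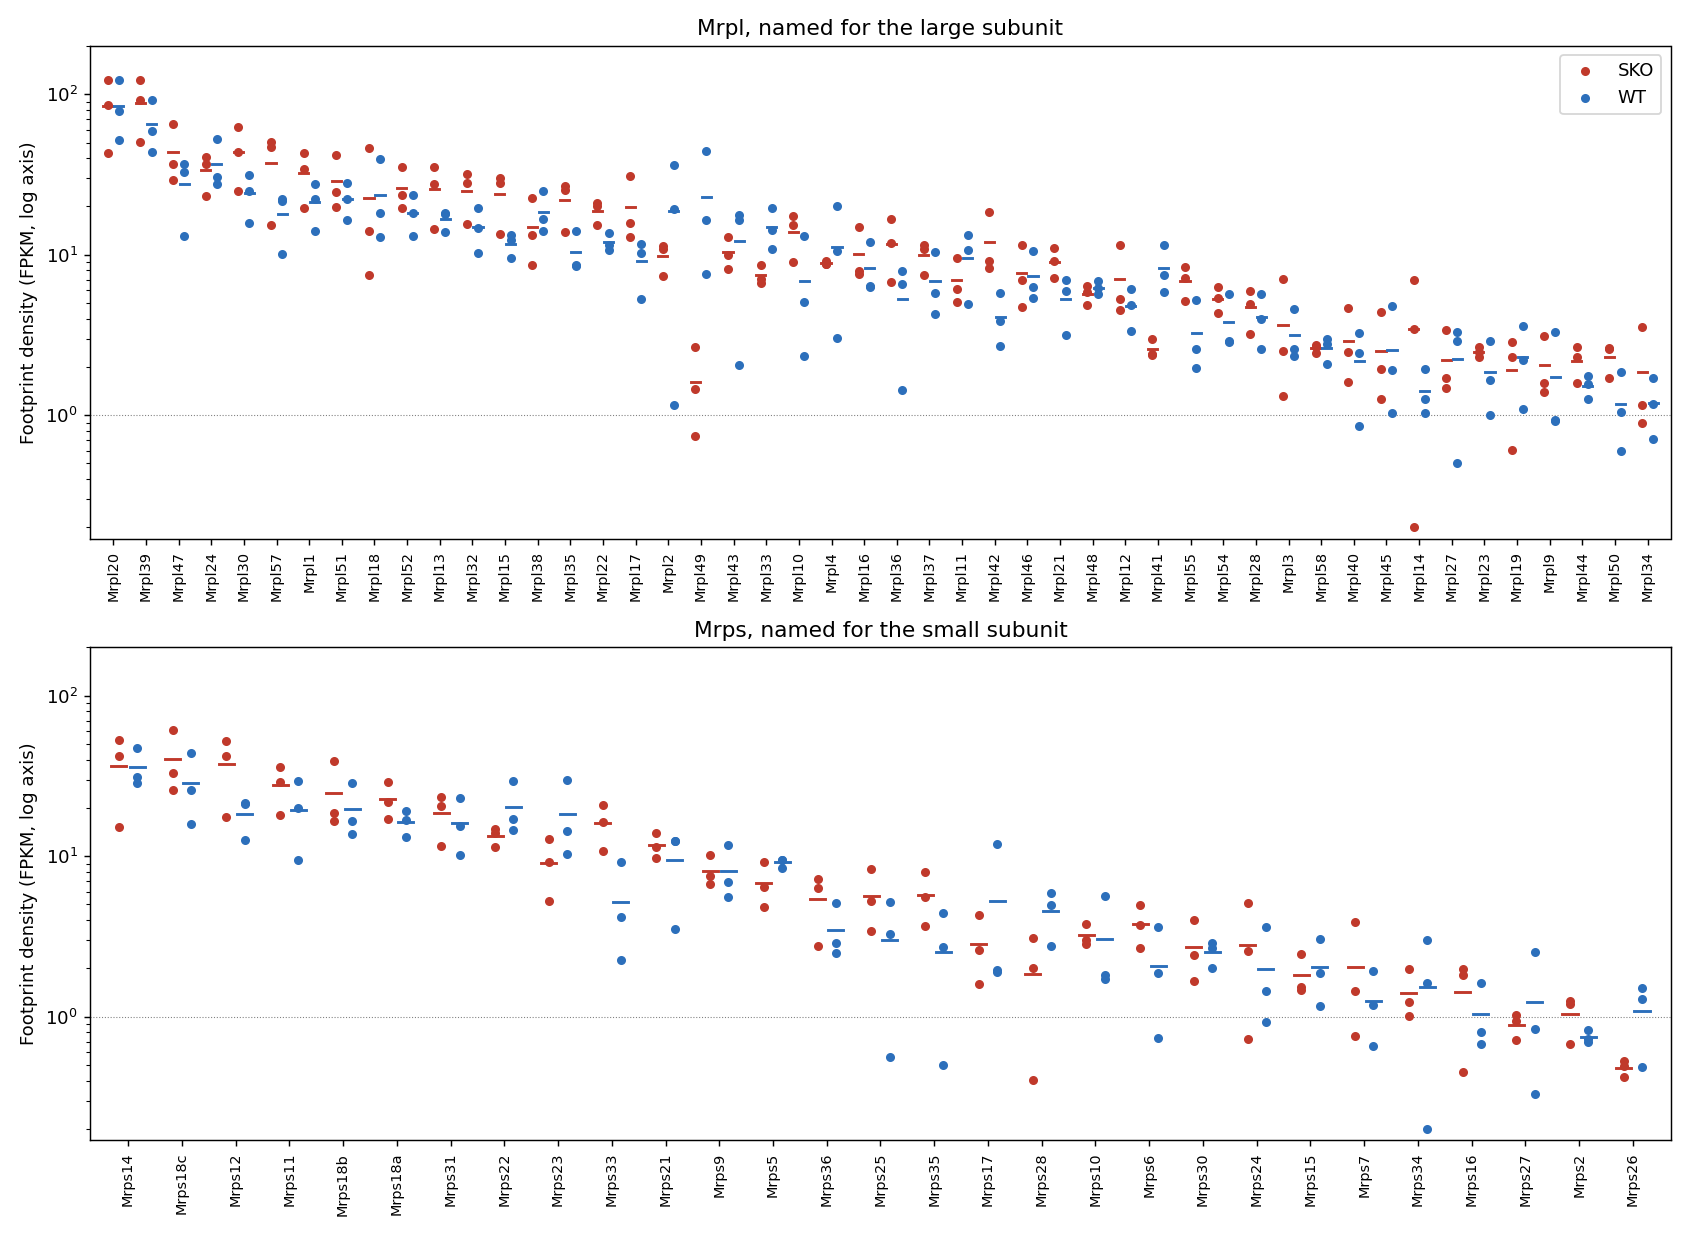
Footprint density of all 77 members in each library, in FPKM on a log axis, with SKO points and WT points beside each other for each gene. Short bars mark group means, the dotted line marks 1 FPKM, and the values of 0 (Mrpl14 in SKO 1, Mrps34 in WT 1) are drawn at 0.2 FPKM. The 2 genotypes overlap in most members, and Mrpl20 and Mrpl39 stand at the top.

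The order of the members by density was much the same in all libraries. Spearman's rho over the 77 members lay between 0.907 and 0.929 within SKO, between 0.772 and 0.874 within WT, and between 0.719 and 0.865 for an SKO with a WT library. These are correlations across genes, which share libraries and gene lengths, and no test was made of them.

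Mrpl rows were denser than Mrps rows in each library. The median over the 48 Mrpl rows was 7.74, 11.5 and 8.48 FPKM in SKO and 4.90, 8.22 and 11.5 FPKM in WT libraries. The median over the 29 Mrps rows was 3.79, 7.17 and 6.38 FPKM in SKO and 3.60, 4.18 and 4.93 FPKM in WT libraries. The Mrpl median was thus between 1.33 and 2.34 times the Mrps median in the 6 libraries. The ratio was 1.66 ± 0.361 in SKO and 1.89 ± 0.492 in WT (SD, n = 3 each), a difference smaller than the spread between replicates. With members placed by structure instead of by name the large-over-small ratio was 1.65 ± 0.209 in SKO and 1.68 ± 0.445 in WT.

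Cytosolic ribosomal proteins showed the opposite order of subunits. The median of their 44 large-subunit rows was 0.610 ± 0.0373 of that of their 31 small-subunit rows in SKO and 0.628 ± 0.0521 in WT (SD, n = 3 each). The cytosolic median was 4.82 ± 1.40 times the mitochondrial one in SKO and 4.15 ± 0.575 times in WT. These ratios describe levels and were not tested.

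**Figure D2:**
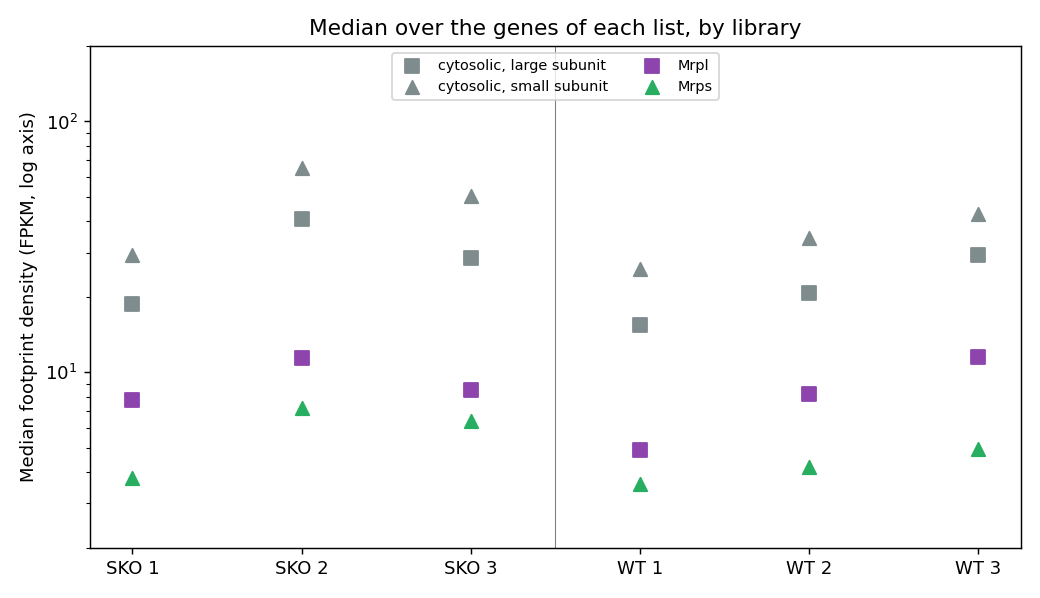
Median footprint density (FPKM, log axis) of the Mrpl and the Mrps rows in each of the 3 SKO and 3 WT libraries. Grey points give the medians of the large-subunit and small-subunit cytosolic ribosomal proteins. The Mrpl median lies above the Mrps median in every library, by between 1.33 and 2.34 times.

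The share of footprints on all members together differed between the genotypes by less than the spread between replicates. Their summed FPKM was 699, 1395 and 1171 in SKO and 603, 897 and 1154 in WT libraries. As a share of the FPKM of all protein-coding rows this was 0.499%, 0.523% and 0.571% in SKO and 0.467%, 0.543% and 0.524% in WT libraries. The mean share was 0.531 ± 0.0366% in SKO and 0.511 ± 0.0397% in WT (SD, n = 3 each), and the ranges overlapped.

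With the deposited values no mitoribosomal gene passed the test between the genotypes. SKO was compared with WT on log2(FPKM + 1) by a two-sided limma test across 15578 rows, and p-values were adjusted over all of them by the Benjamini-Hochberg method. At an adjusted p of 0.05, 20 rows passed (0.128%), 17 higher (0.109%) and 3 lower (0.0193%) in SKO, and 0 of the 75 tested members were among them. With a TMM-type scaling, which aligns the libraries on a trimmed mean of log ratios, 159 rows passed (1.02%), 119 higher (0.764%) and 40 lower (0.257%), again with 0 members. At an unadjusted p under 0.05, 5 members were higher (6.67%, background 8.15%) and 4 lower (5.33%, background 2.83%) in SKO. The SKO and WT libraries did not overlap in 6 members with SKO higher (8%, background 10.9%) and in 3 with SKO lower (4%, background 4.78%). With TMM-type scaling 8 members were higher (10.7%, background 8.9%) and 6 lower (8%, background 6.71%) at an unadjusted p under 0.05. The groups then stood apart in 7 members with SKO higher (9.33%, background 11.6%) and in 7 with SKO lower (9.33%, background 9.85%). These shares lie near the background and are no result about the members. By name they were 6 Mrpl higher (12.5%) and 3 lower (6.25%), and 1 Mrps higher (3.70%) and 4 lower (14.8%). With the deposited values they were 5 Mrpl higher (10.4%) and 3 lower (6.25%), and 1 Mrps higher (3.70%) and 0 lower. These split counts rest on few rows and were not tested. In either direction an unadjusted p under 0.05 was reached by 9 members (12%, background 11%), and by 14 with TMM-type scaling (18.7%, background 15.6%). It was reached by 17 with protein-coding rows alone (22.7%, background 17.7%). Without SKO 1 the count was 17 (22.7%, background 14.5%) and without SKO 3 it was 4 (5.33%, background 8.15%).

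The precision of the test bounds what could be seen. The 95% interval of the log2 fold change reached a median of 0.97 to each side, with a range from 0.71 to 1.97, and it held 0 in 66 of the 75 members. The median log2 fold change of all tested rows was 0.13 with the deposited values. Relative to it the median of the members was 0.17, with 47 of 75 above. On the same scale the 48 Mrpl rows had a median of 0.19, with 31 above, and the 27 tested Mrps rows had 0.08, with 16 above. The difference of 0.11 between Mrpl and Mrps was smaller than its spread of 0.19 between replicates (pooled SD, log2). Without SKO 1 it was -0.0028, and without SKO 3 the Mrps median was -0.038. With TMM-type scaling, where the median of all tested rows was 0.003, the Mrpl median was 0.19 and the Mrps median 0.10. The ratio of the Mrpl to the Mrps median level, given before, was lower in SKO, opposite in sign to the difference in fold changes. The ratio of the mean levels was higher in SKO, 1.47 ± 0.124 against 1.43 ± 0.206 in WT (SD, n = 3 each). All of these differences lay within the spread between replicates. The cytosolic ribosomal proteins had a relative median of 0.29, with 56 of 75 above and 0 past the test.

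**Figure D3:**
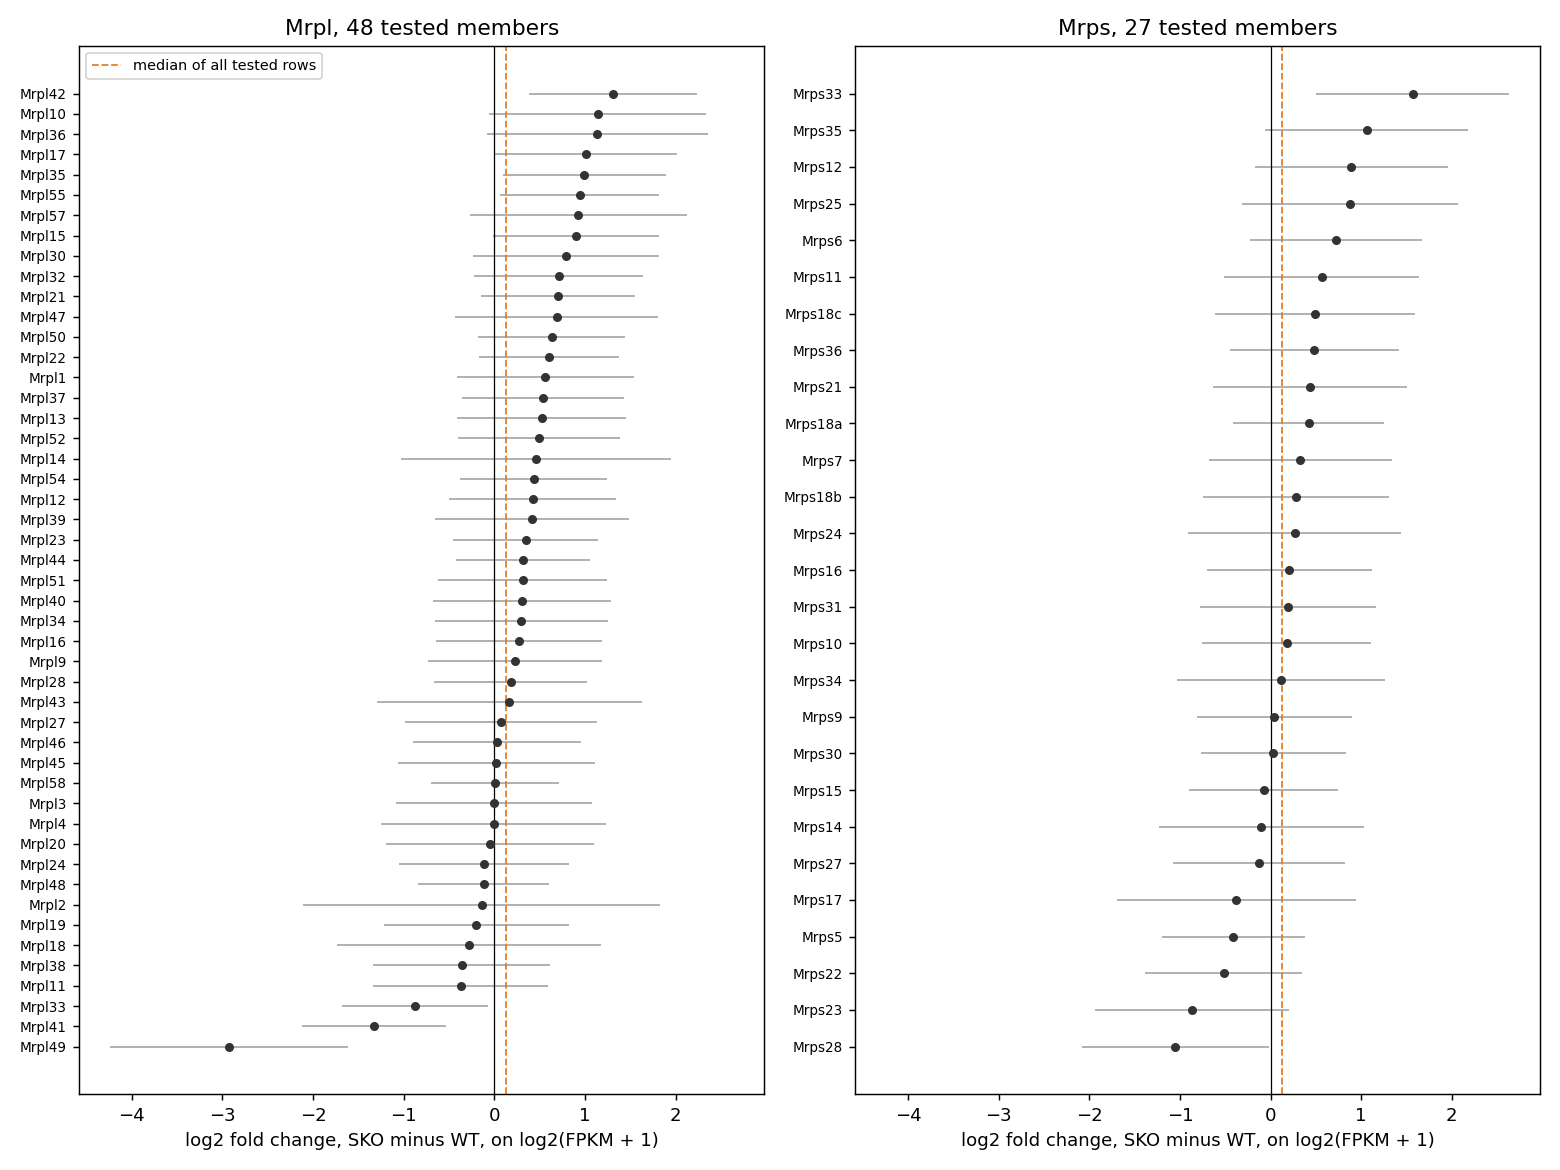
Log2 fold change, SKO minus WT on log2(FPKM + 1), of the 75 tested members with 95% limma intervals, Mrpl and Mrps apart. The dashed line is the median of all tested rows, 0.13, and 66 of the 75 intervals include 0. Mrpl49 lies farthest below, at -2.92.

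The lowest of all members in SKO relative to WT was Mrpl49. Mrpl49 encodes a mitochondria-specific protein of the large subunit and lies at chr19:6053630-6057755 (GRCm38). It had 2.65, 1.46 and 0.74 FPKM in SKO libraries and 16.4, 44.6 and 7.61 FPKM in WT libraries. Each SKO library lay below each WT library, and the WT libraries themselves spread widely. The means were 1.62 ± 0.963 FPKM in SKO and 22.8 ± 19.3 FPKM in WT (SD, n = 3 each), a 14.1-fold higher mean in WT. The log2 fold change was -2.92 (SE 0.59, 95% interval -4.24 to -1.61). It did not pass the test, with an unadjusted p of 0.000639 and an adjusted p of 0.121 in limma. Over 24 alternatives the adjusted p ran from 0.0206 to 0.441. It passed in 2, a filter at a mean of 5 FPKM, where 1.31% of rows passed, and protein-coding rows alone rescaled to equal sums, where 4.71% passed. Without the densest WT library (WT 2) the log2 fold change was -2.29, and without WT 3 it was -3.49. Mrpl49 overlaps Syvn1, a ubiquitin ligase gene of the endoplasmic reticulum. Syvn1 averaged 2.11 ± 0.409 FPKM in SKO and 2.27 ± 0.476 FPKM in WT (log2 fold change -0.07, adjusted p = 0.966).

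Mrpl41 and Mrpl33 were the other members whose SKO libraries all lay below the WT libraries. Mrpl41, a mitochondria-specific protein of the large subunit at chr2:24972470-24975098, had 2.99, 2.40 and 2.38 FPKM in SKO and 5.88, 7.45 and 11.5 FPKM in WT libraries. The SKO libraries lay close together, and the WT mean was 3.19 times the SKO mean. The log2 fold change was -1.33 (SE 0.35, adjusted p = 0.221). Over 24 alternatives the adjusted p ran from 0.0367 to 0.542, and it passed with quantile normalization, where 2.86% of rows passed, and with protein-coding rows alone. Mrpl33, a homologue of bacterial L33, had 6.65, 7.11 and 8.59 FPKM in SKO and 10.9, 19.6 and 14.2 FPKM in WT libraries. In Mrpl33 the log2 fold change was -0.88 (adjusted p = 0.416), and the gene overlaps the noncoding gene Gm38424. Mrps28, homologous to part of bacterial S1, had 2.02, 3.09 and 0.403 FPKM in SKO and 2.77, 5.93 and 4.93 FPKM in WT libraries, which overlapped. Mrps23, a mitochondria-specific small-subunit protein, had 5.29, 12.7 and 9.19 FPKM in SKO and 10.3, 14.4 and 29.9 FPKM in WT libraries, which also overlapped. With TMM-type scaling the SKO libraries of both lay below the WT libraries, with log2 fold changes of -1.17 for Mrps28 (adjusted p = 0.252) and -1.03 for Mrps23 (adjusted p = 0.181).

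Among members denser in SKO, Mrps33 had the largest log2 fold change. Mrps33, a mitochondria-specific small-subunit protein at chr6:39801804-39810936, had 10.8, 16.2 and 21.0 FPKM in SKO and 2.25, 4.18 and 9.17 FPKM in WT libraries. The groups did not overlap, although the lowest SKO library lay close to the highest WT library. The means were 15.997 ± 5.10 FPKM in SKO and 5.20 ± 3.57 FPKM in WT (SD, n = 3 each), 3.08-fold apart. The log2 fold change was 1.57 (SE 0.48, 95% interval 0.50 to 2.64) with an adjusted p of 0.285, and over 24 alternatives the adjusted p ran from 0.0524 to 0.607. Mrpl42, a mitochondria-specific protein at chr10:95480805-95501949, had 9.18, 18.4 and 8.32 FPKM in SKO and 2.71, 5.73 and 3.84 FPKM in WT libraries, without overlap. Mrpl42 had a fold change of 1.31 on the log2 scale (SE 0.41, adjusted p = 0.2996). Mrpl35, a homologue of bacterial L35, had 13.9, 26.9 and 25.2 FPKM in SKO and 8.65, 8.49 and 14.03 FPKM in WT libraries, which overlapped by a small margin. With TMM-type scaling the SKO libraries of Mrpl35 lay above the WT libraries (log2 fold change 0.84, limma adjusted p = 0.149). Mrpl55 had 5.13, 7.12 and 8.37 FPKM in SKO and 1.96, 5.24 and 2.58 FPKM in WT libraries, and here 1 SKO library lay below the highest WT library. Mrpl17, Mrpl22, Mrpl15 and Mrpl21, all homologues of bacterial proteins, completed the 6 members without overlap and with SKO higher in the deposited values.

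These 4 members were apart by small margins, and with TMM-type scaling Mrpl15, Mrpl21 and Mrpl22 overlapped while Mrpl17 did not. Mrpl17, at the exit tunnel, had 12.8, 15.8 and 31.0 FPKM in SKO and 5.33, 10.3 and 11.6 FPKM in WT libraries. Mrpl22, whose bacterial homologue lines the tunnel, had 15.2, 20.1 and 20.9 FPKM in SKO and 13.6, 10.6 and 11.6 FPKM in WT libraries. Mrpl15 had 13.5, 27.9 and 30.2 FPKM in SKO and 13.3, 9.49 and 12.3 FPKM in WT libraries, so that its lowest SKO library barely exceeded its highest WT library. Mrpl21 had 9.09, 7.12 and 11.0 FPKM in SKO and 3.14, 6.94 and 5.90 FPKM in WT libraries, again with a narrow gap. Among the Mrps genes with the smallest p, Mrps35 had 3.69, 7.92 and 5.55 FPKM in SKO and 4.42, 2.71 and 0.503 FPKM in WT libraries. Mrps6, of the platform, had 4.96, 2.67 and 3.72 FPKM in SKO and 3.60, 0.735 and 1.88 FPKM in WT libraries. Both of these overlapped between the genotypes.

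Some members varied widely within a genotype. Mrpl2, a protein of the peptidyl transferase core, had 10.8, 11.3 and 7.32 FPKM in SKO but 1.16, 36.2 and 19.1 FPKM in WT libraries. Mrpl43 had 8.18, 12.9 and 10.0 FPKM in SKO but 2.05, 16.5 and 17.7 FPKM in WT libraries. In both the SKO libraries lay inside the range of the WT libraries.

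**Figure D4:**
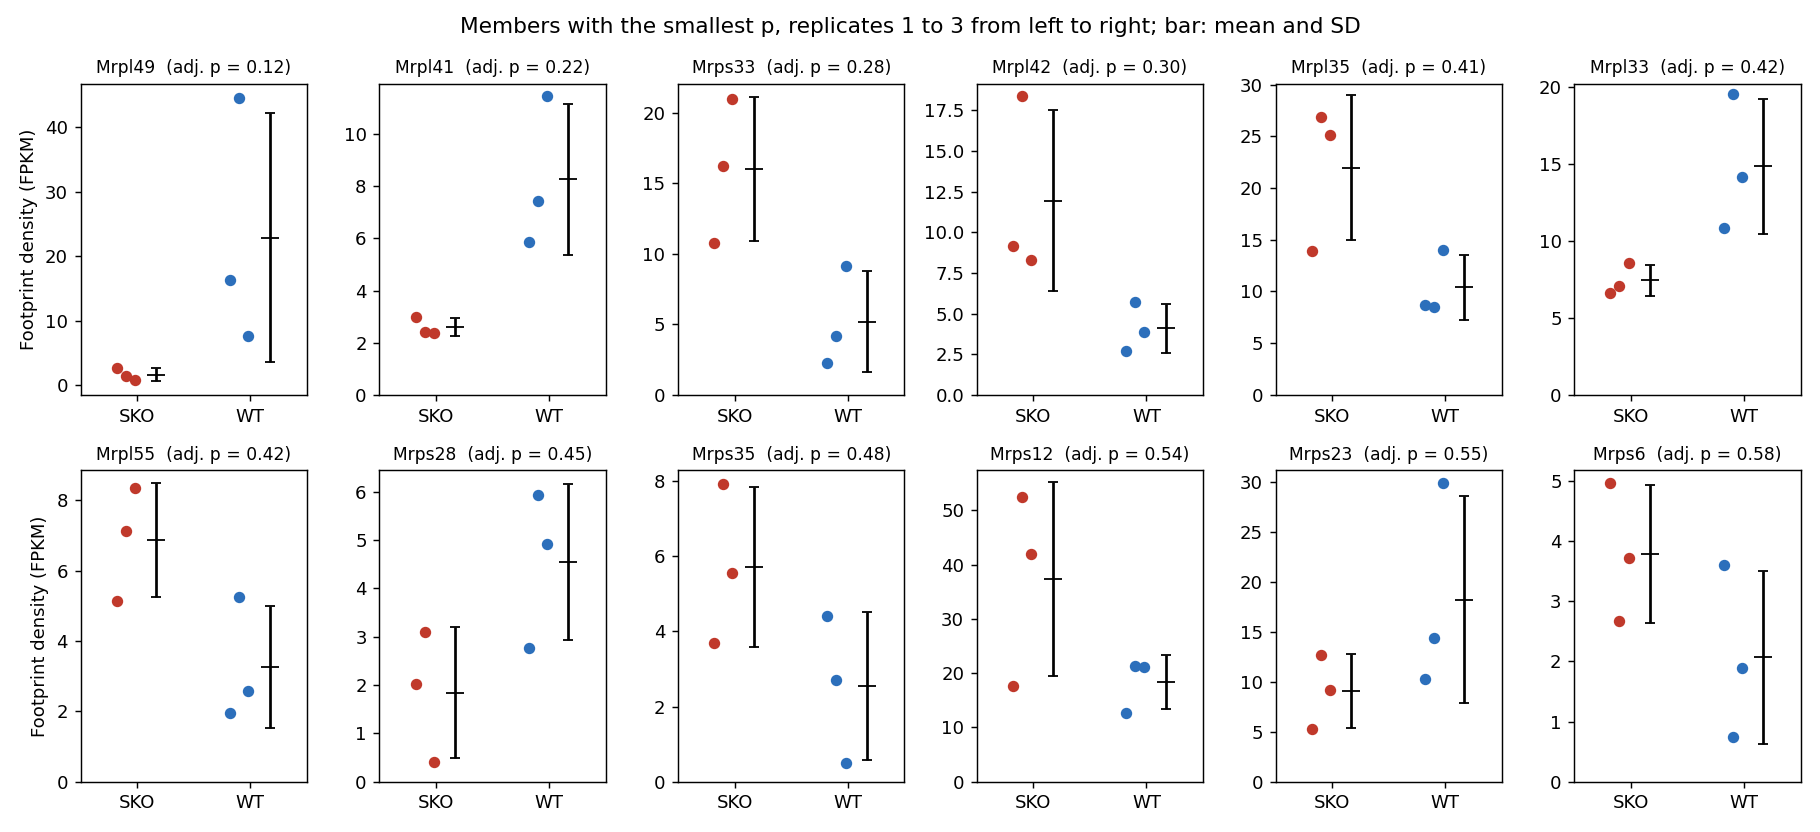
Footprint density (FPKM) in the SKO and WT libraries of the 6 Mrpl and the 6 Mrps members with the smallest unadjusted p. Points are replicates and bars give the mean ± SD of 3. In Mrpl49, Mrpl41 and Mrpl33 all SKO points lie below all WT points, and in Mrps33 and Mrpl42 all lie above, although none passed the adjusted threshold.

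The members were next ordered by their place in the ribosome. Mrpl1, of the stalk that guides deacylated tRNA out, had 19.6, 42.9 and 34.4 FPKM in SKO and 13.97, 22.1 and 27.7 FPKM in WT libraries. In the stalk that binds elongation factors, Mrpl12 had 4.53, 11.4 and 5.32 FPKM in SKO and 4.87, 3.36 and 6.07 FPKM in WT libraries. Mrpl10, which carries the Mrpl12 copies, had 9.06, 17.4 and 15.3 FPKM in SKO and 2.33, 5.04 and 13.1 FPKM in WT libraries. These 3 members overlapped between the genotypes. Mrpl11, at the base of that stalk, had 5.07, 6.12 and 9.57 FPKM in SKO and 4.93, 10.6 and 13.3 FPKM in WT libraries, so within 1 structure Mrpl11 had a lower mean in SKO and Mrpl10 a higher one. Neither difference passed the test.

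At the exit tunnel, Mrpl45, which links the ribosome to the inner membrane, had 1.26, 1.94 and 4.37 FPKM in SKO and 1.03, 1.90 and 4.76 FPKM in WT libraries. The members placed at the exit tunnel were Mrpl17, Mrpl22, Mrpl23, Mrpl24, Mrpl45 and Mrpl47. Relative to the median of all tested rows, the median log2 fold change of the 6 exit tunnel members was 0.35, with 4 of 6 above. That of the 6 members of the central protuberance, among them the peptidyl-tRNA hydrolase Mrpl58, was -0.18, with 1 of 6 above. The others placed there were Mrpl18, Mrpl38, Mrpl40, Mrpl46 and Mrpl48. The region lists are partial, and many members were placed in none. Among these was Mrpl55, a homologue of bacterial L31, with a log2 fold change of 0.94. Mrpl58 had 2.74, 2.67 and 2.44 FPKM in SKO and 2.10, 2.98 and 2.76 FPKM in WT libraries, nearly the same means. Those placed in the peptidyl transferase core were Mrpl2, Mrpl3, Mrpl4, Mrpl16 and Mrpl27. Placing Mrpl4 (log2 fold change -0.007) at the exit tunnel instead was not tested. The relative median was -0.13 for the 5 members of the peptidyl transferase core, with 1 of 5 above, and 0.30 for the 4 of the L7/L12 stalk, with 3 of 4 above. In the small subunit it was 0.40 for the 4 platform members, with 4 of 4 above, and -0.017 for the 4 head members, with 2 of 4 above. Mrps12, at the decoding centre, had 17.7, 52.5 and 42.0 FPKM in SKO and 12.6, 21.3 and 21.1 FPKM in WT libraries, which overlapped (log2 fold change 0.89, adjusted p = 0.535). None of the members in these regions passed the test, and the regions were not compared with each other. The 45 tested homologues of bacterial proteins, with a relative median of 0.17, and the 29 mitochondria-specific ones, with 0.16, lay close together.

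The 3 members whose place differs from their name overlapped between the genotypes. Mrps30 had 1.68, 4.02 and 2.42 FPKM in SKO and 2.00, 2.89 and 2.68 FPKM in WT libraries. Mrps18a had 16.98, 21.7 and 29.0 FPKM in SKO and 13.1, 19.2 and 16.8 FPKM in WT libraries. Mrps36 had 2.75, 7.17 and 6.38 FPKM in SKO and 2.502, 5.07 and 2.90 FPKM in WT libraries, and its value is uncertain because 2 of the 4 mitoribosomal pseudogene rows of the table are copies of it.

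In all, 24 members overlap another annotated gene, 19 of them a protein-coding one, and the deposited values do not show how reads shared by overlapping genes were assigned. An example was Mrpl18, of the central protuberance, which overlaps the chaperonin gene Tcp1. Mrpl18 had 13.98, 46.2 and 7.497 FPKM in SKO and 12.9, 18.2 and 39.3 FPKM in WT libraries, whereas Tcp1 averaged 1588 ± 590 FPKM in SKO and 1512 ± 422 FPKM in WT. The 23 tested members that overlap another gene had a relative median of -0.053, and the 52 that overlap none had 0.20.

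With the deposited values none of the other listed genes of mitochondrial translation passed the test. All 5 mitoribosomal subunits with other names were tested, and 0 passed. Dap3, the GTP-binding protein of the small subunit, averaged 51.3 ± 23.3 FPKM in SKO and 29.4 ± 11.1 FPKM in WT. Chchd1 averaged 18.7 ± 3.63 FPKM in SKO and 32.8 ± 11.0 FPKM in WT, and Aurkaip1 averaged 24.4 ± 6.60 FPKM in SKO and 13.01 ± 6.80 FPKM in WT (SD, n = 3 each). Chchd1 and Aurkaip1 overlapped between the genotypes with the deposited values. With TMM-type scaling they did not, with SKO lower in Chchd1 (limma adjusted p = 0.114) and higher in Aurkaip1 (adjusted p = 0.271).

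Of 26 listed assembly factors 25 were in the table and 22 were tested, with 0 past the test and a relative median of -0.11. The smallest p among them belonged to Ndufab1, the mitochondrial acyl carrier protein, with 33.3, 71.1 and 61.0 FPKM in SKO and 16.9, 17.5 and 24.2 FPKM in WT libraries. Its groups did not overlap (log2 fold change 1.40, adjusted p = 0.275), and like Chchd1 it passed in 2 alternatives, quantile normalization, where 2.86% of all rows passed, and protein-coding rows alone, where 4.71% passed. Nsun4, a methyltransferase of the small-subunit RNA, averaged 11.1 ± 1.39 FPKM in SKO and 4.98 ± 0.667 FPKM in WT (log2 fold change 1.01, adjusted p = 0.303). Dhx30, an RNA helicase needed for assembly, averaged 25.7 ± 6.64 FPKM in SKO and 32.2 ± 12.6 FPKM in WT. Of 19 listed translation factors 16 were in the table and 15 were tested, with 0 past the test and a relative median of 0.06. Mrrf, the recycling factor, averaged 14.7 ± 8.73 FPKM in SKO and 9.08 ± 3.09 FPKM in WT, and Gfm2, which works with it, averaged 6.42 ± 3.65 FPKM in SKO and 3.47 ± 0.859 FPKM in WT. Lrpprc, which stabilises mitochondrial mRNAs, averaged 11.1 ± 5.83 FPKM in SKO and 11.4 ± 2.83 FPKM in WT. Taco1, an activator of translation of a cytochrome oxidase subunit, averaged 1.33 ± 0.234 FPKM in SKO and 0.679 ± 0.622 FPKM in WT.

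Facts of the libraries bear on these values. Absolute depth is unknown. From the steps of low values the relative depth ran from 0.503 to 1 in SKO and from 0.631 to 0.787 in WT. SKO 1 had the value 1. In the other libraries the estimate rests on 5.76% to 7.25% of the low rows and is rough. Protein-coding rows held between 18.3% and 33.1% of the summed FPKM. All 15 round spermatid marker genes were in the table, with summed FPKM of 1073 to 2171 in SKO and 838 to 1455 in WT. Markers of somatic testis cells differed between the genotypes. The summed level of 5 Sertoli markers of 11 listed was 60.9 to 83.8 FPKM in SKO and 13.7 to 25.6 FPKM in WT, that of 6 Leydig markers of 9 was 52.3 to 107 FPKM in SKO and 12.5 to 17.3 FPKM in WT, and that of 4 peritubular markers of 6 was 25.8 to 39.2 FPKM in SKO and 4.54 to 6.19 FPKM in WT. The 7 blood, macrophage and endothelial markers of 11 summed to 17.9 to 44.9 FPKM in SKO and 52.0 to 114 FPKM in WT. The log2 fold changes of these 7 ran from -1.53 to 0.59, so not all were lower in SKO, and the sum pools different cell types. No marker in the table was at 0 in all libraries. Their part in the values of the members was not tested.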

How the data were processed

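The members and gene lists were chosen with earlier results of these data known. Ribosome profiling libraries of 3 SKO and 3 WT samples were used, with groups and replicate numbers from the labels. The deposited values are FPKM computed by the authors, with a single value for each symbol in each library and no read counts. Per the submitters' processing notes, mm10 was the build and the tools included Bowtie2, Cufflinks, Cutadapt and STAR, without a stated role or order. How ribosomal RNA and multi-mapping reads were treated, and the annotation, is not given in the sources used here. Since FPKM is relative, abundant rows move all others.

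A pseudocount of 1 was added to the deposited FPKM and log2 was taken. The 15578 rows whose mean reached 1 FPKM were fitted with limma (version 3.58.1, R version 4.3.3) by lmFit and a trended eBayes. Tests were two-sided, p-values were adjusted by Benjamini-Hochberg over those rows, and the threshold was 0.05. Fold changes on this scale understate those of low rows. The labels do not say that samples came from separate animals, so each p-value measures only the spread among these 6 samples, which may be technical. Summaries used Python 3.11.15 with pandas 2.3.3. Gene positions and promoters came from RefSeq (GRCm38.p6).

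Named were members past the test under either scaling, the 6 Mrpl and 6 Mrps with the smallest p, the 4 densest and 3 sparsest tested of each, members with a role or place of note, and for the other lists the 2 genes with the smallest p and the 2 densest. Mrpl46, Mrpl43, Mrpl18, Mrpl2, Mrpl14, Mrps2, Mrps26, Mrpl15, Mrpl17, Mrpl21, Mrpl22 and members whose promoters are printed were named after their values were seen. So were the members listed for the exit tunnel, the peptidyl transferase core and the central protuberance. A planned rule on proline runs needed proteins, which were not used here. Alternatives were other pseudocounts (0.1 and 5), other filters (none, or a mean of 5 FPKM), other scalings (TMM-type, with 0.3 of ratios and 0.05 of levels trimmed at each end, quantile, equal sums, protein-coding rows alone), other eBayes settings (untrended, robust), the replicate block and leaving out each library.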

Additional observations from a re-analysis of the deposited data

How the results depend on the processing

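No member passed the test with the deposited values or with TMM-type scaling. A filter at a mean of 5 FPKM gave 1 member (Mrpl49), quantile normalization 1 (Mrpl41), and protein-coding rows alone rescaled to equal sums 2 (Mrpl41 and Mrpl49), and the cause was not tested. Over all tested rows 20 passed. A pseudocount of 5 gave 4, testing all rows 5, the filter at 5 FPKM 86, TMM-type scaling 159, quantile normalization 446, protein-coding rows alone 526 and robust estimation 63. Leaving out 1 library gave 4 (without WT 3) to 27 with the deposited values and 4 to 28 with TMM-type scaling, where it was 10 without SKO 1 and 8 without SKO 3 or WT 2. Members with an unadjusted p under 0.05 numbered 9, against 14 with TMM-type scaling and 17 with protein-coding rows alone, and ran from 4 without SKO 3 to 17 without SKO 1 (9 to 16 with TMM-type scaling). With TMM-type scaling and a library left out the members' share was 12% to 21.3%, against 12.4% to 16.5% of all rows. The share lay above that of all rows with the filter at 5 FPKM (21.3% against 14.1%) and robust estimation (17.3% against 11.2%). It was also above without WT 1 (14.7% against 8.9%). With equal sums (9.33% against 11.7%) and without SKO 2 (6.67% against 8.36%) or SKO 3 (5.33% against 8.15%) it lay below. For the 18 named genes chosen for a small p, 0 of 427 fold changes changed sign and 8 passed the test, 2 each for Mrpl41, Mrpl49, Chchd1 and Ndufab1. Of all 44 named genes 13 changed sign in at least 1 alternative, among them Mrpl58 in 14 of 23, Mrps30 in 13 and Mrpl45 in 11, and of the 75 tested members 34 did.

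The replicate block left 5 rows past the test, and 4 with TMM-type scaling, with 0 members among them, and 14 members (18.7%, against 13% of all rows) and 16 members (21.3%, against 16.2%) at an unadjusted p under 0.05. Deviations of same-numbered samples correlated at 0.093, 0.00016 and 0.024, and those of differently numbered samples between -0.107 and 0.080. Taken from the means of only 3 samples per group, these deviations cannot decide whether the numbers pair the samples.

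The Mrpl median relative to all rows kept its sign in 26 alternatives, between 0.10 and 0.34. The Mrps median was -0.038 without SKO 3 (-0.066 with TMM-type scaling), and the difference between Mrpl and Mrps was -0.0028 without SKO 1. Leaving out 1 library gave -0.038 to 0.25 for the Mrps median and -0.0028 to 0.28 for the difference. With TMM-type scaling these were -0.066 to 0.19 and 0.01 to 0.29. Members that overlap no other gene, an alternative chosen after seeing the data, gave 0.29 for Mrpl and 0.07 for Mrps. The 3 libraries per genotype and unknown depth limit what can be seen.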
